A study of Homo sapiens with 6 samples.

Results

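The 49 genes described here encode mitotic kinases and cyclins, the spindle assembly checkpoint, the kinetochore, the chromosomal passenger complex, the anaphase-promoting complex, spindle proteins and cytokinesis proteins, with the cell cycle genes TOP2A, MKI67 and FOXM1. They were picked by symbol from a list of genes with these functions, a rule that uses no measured value although earlier results of these data were known when the list was made, and each was matched to its Ensembl identifier among the 60624 genes of the expression table. RNA-seq was performed in A549 cells, an established human lung adenocarcinoma line, 3 days after transfection with an siRNA against CEP20 (siCEP20, 3 samples) or a control siRNA (siCTR, 3 samples). The comparison asks how depletion of CEP20, a protein of the centrosome and of centriolar satellites, altered the transcripts of these genes. No other agent or allele was named for either group. The labels name siCTR and siCEP20 in the treatment text but "plasmid transfection" in another field, and the study's methods list more than one CEP20 siRNA without saying which was sequenced. The study's methods say in general that experiments were done as 3 independent ones, but the labels do not say that the sequenced samples were separate cultures, so every p-value measures only the spread between these samples, which may be technical.

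At mitotic entry, CDK1 with the B cyclins and PLK1 drive chromosome condensation and spindle assembly. Kinetochores, built on centromeres, bind the spindle microtubules, and unattached kinetochores hold BUB and MAD proteins that block CDC20 and the anaphase-promoting complex until every chromosome is attached. Aurora B, in the chromosomal passenger complex, corrects wrong attachments, and cytokinesis follows at the central spindle. Most of these genes are transcribed in G2 and M phase, many through a CHR element (TTTGAA) read by the DREAM and MYB-FOXM1 complexes together with CCAAT boxes bound by NF-Y. RNA from bulk cells cannot tell apart fewer cells in a cell cycle stage and less RNA per cell.

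The promoters of 6 of these genes are printed to show the searched letters in genes that rose, in a gene that fell and in the gene with the highest fold change. CCNB2, PLK1, MKI67 and HMMR rose and hold TTTGAA, CCNB1 fell, and SKA2 had the highest fold change. Each line is the 120 bases directly before the RefSeq start on GRCh38.p14, read 5′ to 3′ on the gene's strand, and capitals mark TTTGAA and CCAAT or their complements TTCAAA and ATTGG. The windows are chr15:59105026-59105145 on the plus strand for CCNB2, chr5:69167030-69167149 plus for CCNB1, chr16:23678769-23678888 plus for PLK1, chr10:128126424-128126543 minus for MKI67, chr5:163460512-163460631 plus for HMMR and chr17:59155187-59155306 minus for SKA2.
CCNB2: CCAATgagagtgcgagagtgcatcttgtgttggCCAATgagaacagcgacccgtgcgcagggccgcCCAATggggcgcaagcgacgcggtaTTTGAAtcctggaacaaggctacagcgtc
PLK1: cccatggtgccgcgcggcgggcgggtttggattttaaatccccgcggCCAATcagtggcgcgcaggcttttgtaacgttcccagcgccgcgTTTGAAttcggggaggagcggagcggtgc
MKI67: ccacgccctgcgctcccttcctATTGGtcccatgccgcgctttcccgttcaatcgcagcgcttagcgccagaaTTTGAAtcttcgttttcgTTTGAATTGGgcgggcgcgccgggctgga
HMMR: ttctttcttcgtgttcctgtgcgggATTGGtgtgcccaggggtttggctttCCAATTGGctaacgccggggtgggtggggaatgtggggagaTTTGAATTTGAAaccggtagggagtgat
CCNB1: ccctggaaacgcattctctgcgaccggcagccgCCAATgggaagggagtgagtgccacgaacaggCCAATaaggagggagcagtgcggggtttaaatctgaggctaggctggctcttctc
SKA2: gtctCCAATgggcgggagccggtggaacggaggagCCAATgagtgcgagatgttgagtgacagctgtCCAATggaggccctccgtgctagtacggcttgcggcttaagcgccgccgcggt
The nearest TTTGAA began 29 bases before the start in CCNB2, in PLK1 and in MKI67, and 22 bases before it in HMMR. The printed windows of CCNB1 and SKA2 hold CCAAT but not TTTGAA on either strand.

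TTTGAA was frequent among these promoters. RefSeq promoter entries, each 300 bases from 250 before to 50 after the start, were matched for 39 of the 49 genes, and a gene was counted when any of its entries held the letters on either strand. TTTGAA occurred in 28 of the 39 (71.8%), against 13.1% of the tested genes with an entry. CCAAT occurred in 31 of 39 (79.5%), against 42.9%, and both occurred in 22 of 39 (56.4%), against 5.50%. Over the promoters of all genes in the RefSeq table the shares were 18.2% for TTTGAA, 39.7% for CCAAT and 7.26% for both. In the last 120 bases before the start, the span printed above, TTTGAA occurred in 18 of the 39 (46.2%), against 4.65% of tested genes. Genes that rose without it in that span include ZW10, SKA3 and TOP2A, so the printed promoters are not typical of all that rose. The letters can overlap by a base or more, as in MKI67 and HMMR, and a match is not a measured binding site. The 28 genes with TTTGAA had a median log2 fold change of 0.39, and the 11 without it had a median of 0.22, a difference that was not tested. Genes that rose stood on both sides, including SKA2 and CDC27 without TTTGAA, and so did genes that fell, since MAD2L1 holds it and CCNB1 does not.

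**Figure D1:**
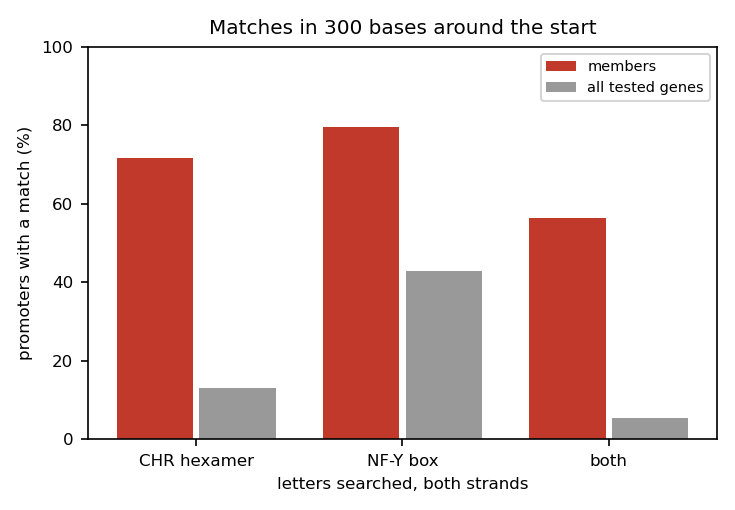
The y axis gives the share of promoters (%) with at least 1 match on either strand in 300 bases around the RefSeq start, and the x axis gives the letters searched: TTTGAA (CHR hexamer), CCAAT (NF-Y box) and both. Red bars stand for the 39 mitotic genes with an entry and grey bars for all tested genes with one, and the red bars are taller in each pair (71.8% against 13.1% for TTTGAA).

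CEP20 transcript, the target of the siRNA, was 29.2, 30.5 and 35.1 TPM, the length-normalised share of transcripts that the table gives, in siCTR samples and 16.2, 15.3 and 17.3 TPM in the siCEP20 libraries, so 51.4% of the siCTR mean remained. The groups did not overlap, and the log2 fold change was -0.92 (SE, the standard error, 0.0915, and adjusted p = 0.000205 by limma). An exact two-sided permutation test of the TPM gave p = 0.1, the smallest that 3 against 3 allows. Read depth cannot be had from TPM, and precision rests on 3 samples a group. Between 14429 and 14600 genes reached 1 TPM in the siCTR libraries and between 14851 and 14987 in siCEP20 samples. All 6 epithelial markers reached 1 TPM in at least 1 library, although EPCAM was at 0.834 TPM in siCTR replicate 1. Their summed level was 7029 to 7333 TPM in siCTR and 8474 to 8709 TPM in siCEP20. Of 5 fibroblast markers, 1 (COL1A1) did, COL1A2 and DCN were at 0 in every library, and the summed level was 5.36 to 6.02 TPM in siCTR and 17.7 to 19.9 TPM in siCEP20. Of 5 leukocyte markers, 2 (CD68 and ITGAM) did, CD3E was at 0 in every library, and the sums were 16.2 to 24.4 and 28.4 to 47.4 TPM. None of 4 endothelial markers reached 1 TPM. The part of these levels in the results was not tested.

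All 49 genes reached the mean of 1 TPM over the 6 libraries needed for testing, among 14778 genes. "Rose" and "fell" refer below to an adjusted p-value under 0.05 in limma on log2(TPM + 1) over all tested genes, and "called" adds a fold change over 1.5 or under 0.67. Fold changes on this scale understate those of low genes. Of the 49, 28 rose (57.1%), against 30.2% of all tested genes, and 2 fell (4.08%), against 13.2%. Called higher were 11 (22.4%), against 11.2%, namely ZW10, CENPF, SKA2, SKA3, CDC27, ASPM, DLGAP5, HMMR, CKAP2L, ANLN and MKI67. None was called lower, against 4.61% of all tested genes, and the count of those that fell was 2, MAD2L1 and CCNB1. Every siCEP20 sample lay above every siCTR sample for 31 of the 49 genes, against 38.4% of all tested genes, and below for 3, against 17.0%.

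The median log2 fold change of the 49 genes was 0.33, with a range from -0.26 to 1.02, and the median of all tested genes was 0.13. Relative to that median, the 49 genes stood 0.19 higher, and 34 of 49 lay above it. The summed level of the 49 transcripts was 1978, 2036 and 2259 TPM in the siCTR libraries and 2413, 2563 and 2388 TPM in the siCEP20 libraries, a ratio of means of 1.17. The sums did not overlap between groups.

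The counts moved with the scaling of the libraries. Median-of-ratios scaling, which sets the median gene of each library to a common level, removed the shift of all genes. With it, 18 of the 49 genes rose (36.7%, against 20.1% of all tested genes) and 6 fell (12.2%, against 21.6%). Called higher were 5 (10.2%, against 6.05%), namely ZW10, CENPF, SKA2, SKA3 and MKI67. Of the genes that passed, 75.0% rose in place of 93.3%, and over all genes 48.2% in place of 69.6%. With this scaling the summed level of the 49 genes gave a ratio of 1.06. Libraries also mattered. Without siCTR replicate 1, 6 genes were called higher (12.2%, against 9.28% of all tested genes), and CDC27, DLGAP5, HMMR, CKAP2L and ANLN were lost. Without siCEP20 replicate 2, 7 were called higher (14.3%, against 10.2%), and ASPM, DLGAP5, CKAP2L and ANLN were lost.

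**Figure D2:**
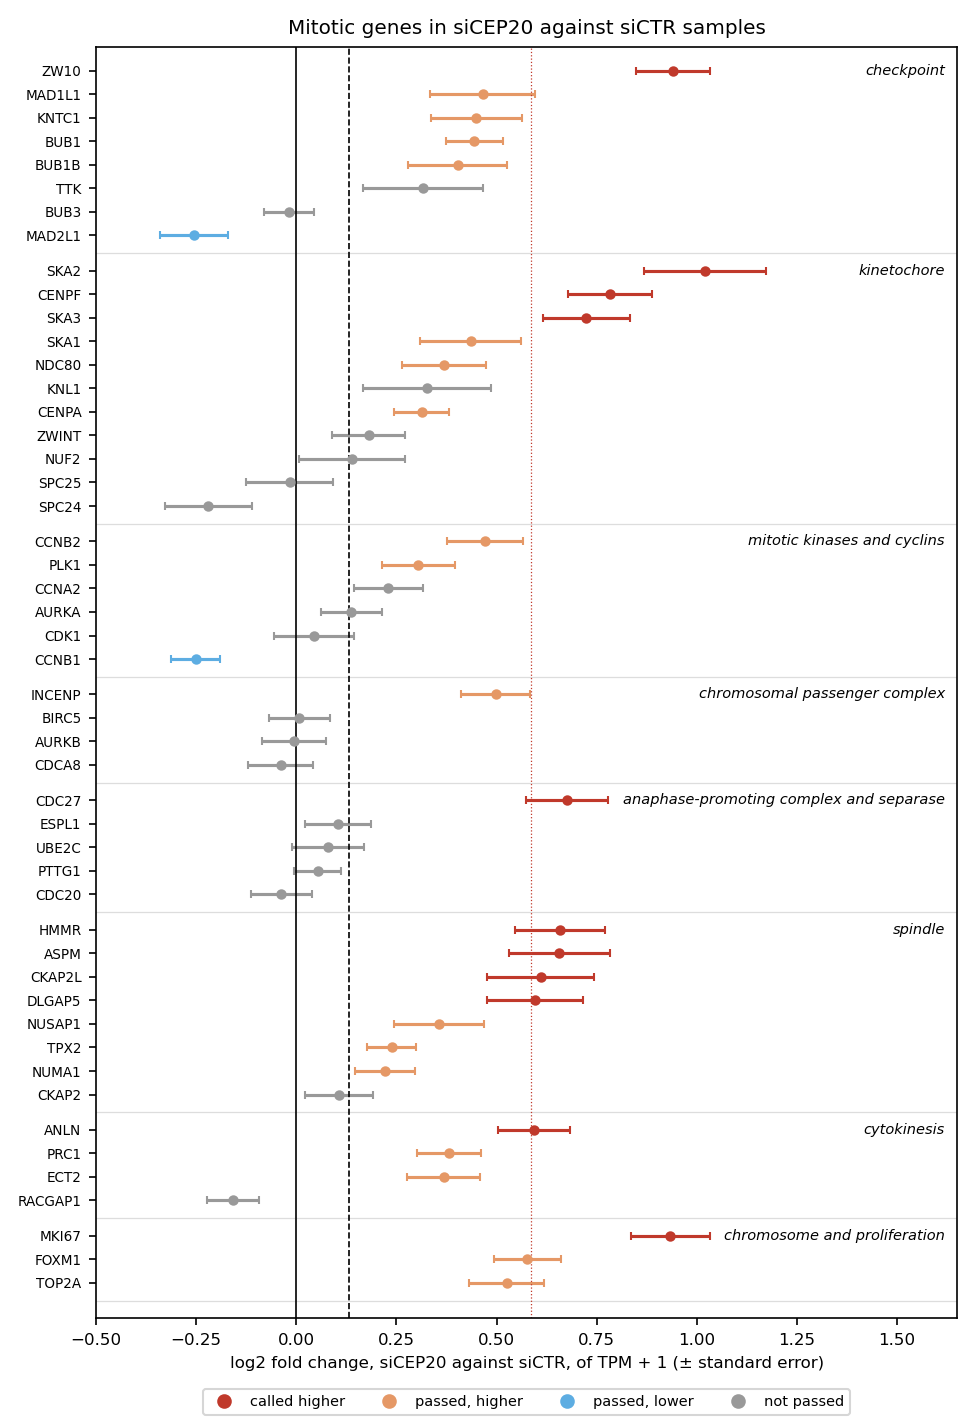
The x axis gives the log2 fold change of TPM + 1, siCEP20 against siCTR, with bars of ± 1 standard error from limma (3 samples a group), and each row is a gene, grouped by function. The solid line marks 0, the dashed line the median of all tested genes (0.13) and the dotted line the fold of 1.5, and SKA2 (1.02), ZW10 (0.94) and MKI67 (0.93) lie farthest to the right while MAD2L1 and CCNB1 lie to the left of 0.

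**Figure D3:**
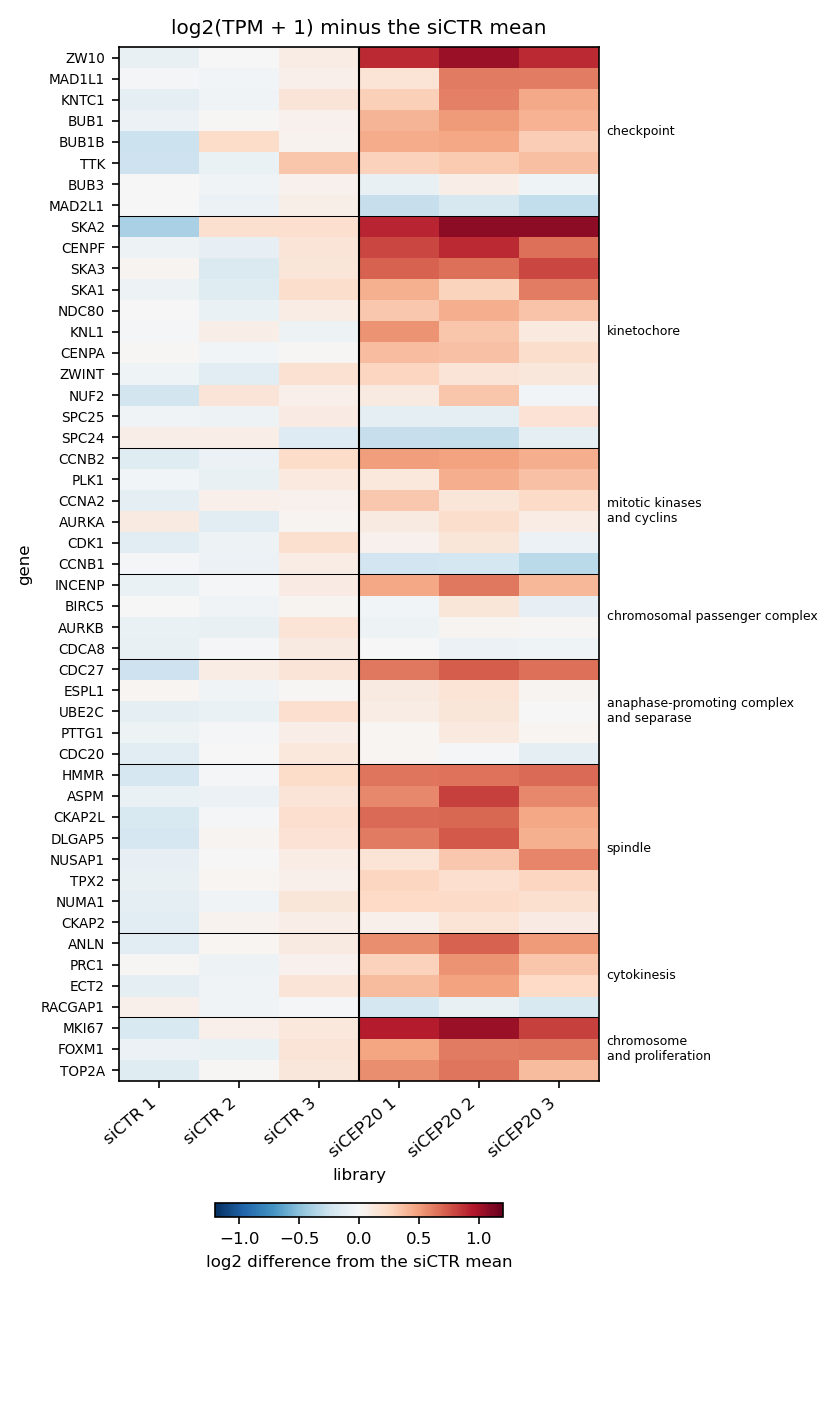
Columns are the 6 libraries, rows are the 49 genes by function, and colour gives log2(TPM + 1) minus the siCTR mean of that gene (red higher, blue lower). The siCEP20 columns are mostly red, with blue rows for MAD2L1, SPC24, CCNB1 and RACGAP1, and siCTR replicate 1 is bluest among the controls (median deviation of the 49 genes -0.08).

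Of the 8 checkpoint genes, 5 rose, 1 fell and 2 did not pass, with a median log2 fold change of 0.42. ZW10 (chr11:113733187-113773735, minus strand), a subunit of the RZZ complex that brings dynein and MAD proteins to unattached kinetochores, had 7.13, 7.59 and 8.18 TPM in the siCTR libraries and 15.0, 16.6 and 15.0 TPM in the siCEP20 libraries. Its groups were far apart, with means of 7.63 ± 0.526 and 15.6 ± 0.926 TPM (SD, n = 3). The log2 fold change was 0.94 ± 0.0915 (SE; adjusted p = 0.000187 by limma), and ZW10 was called under every alternative other than a fold of 2. KNTC1, another RZZ subunit, rose by 0.45 on the log2 scale, from 10.6 ± 1.15 to 14.9 ± 1.72 TPM.

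BUB1 (chr2:110637528-110678063, minus strand), the kinase that marks centromeric histone and recruits checkpoint proteins, rose from 23.2 ± 1.05 to 32.0 ± 1.30 TPM, with a log2 fold change of 0.44. Its partner BUB3 (chr10:123154402-123170467, plus strand), which carries BUB1 and BUBR1 to the kinetochore, had 113, 111 and 118 TPM in siCTR and 107, 121 and 110.0 TPM in siCEP20. The groups overlapped for BUB3 and the log2 fold change was -0.02 ± 0.0633 (SE; adjusted p = 0.838), though with median-of-ratios scaling it was -0.17 (adjusted p = 0.0389). BUB1B, which encodes BUBR1, a CDC20 inhibitor, showed a log2 fold change of 0.40 (adjusted p = 0.0296), and with median-of-ratios scaling 0.26 (adjusted p = 0.0892). MAD1L1, the kinetochore anchor of MAD2, had 0.47 (adjusted p = 0.0210), and with that scaling an adjusted p of 0.0601.

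MAD2L1 (chr4:120055623-120066858, minus strand), which encodes MAD2, the checkpoint protein that closes around CDC20, went the other way. Its level was 12.4, 11.7 and 13.0 TPM in the siCTR libraries and 10.0, 10.7 and 9.89 TPM in the siCEP20 libraries, without overlap. The log2 fold change was -0.26 ± 0.0851 (SE; adjusted p = 0.0403 by limma). Without any single library it no longer passed, with an adjusted p from 0.0563 without siCTR replicate 2 to 0.107 without siCTR replicate 3, while median-of-ratios scaling gave -0.39 (adjusted p = 0.00500). TTK, the kinase MPS1 that starts checkpoint signalling, had 5.92, 6.78 and 9.40 TPM against 8.95, 9.25 and 9.59 TPM, overlapping groups with a log2 fold change of 0.32 (adjusted p = 0.122).

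Of the 11 kinetochore genes, 6 rose (54.5%, against 30.2% of all tested genes), none fell (against 13.2%) and 5 did not pass. Their median was 0.33. With median-of-ratios scaling 3 rose (27.3%, against 20.1%) and 1 fell (9.09%, against 21.6%). All 3 genes of the SKA complex, which couples kinetochores to depolymerising microtubules, rose. SKA2 (chr17:59109857-59155260, minus strand) had 19.9, 30.2 and 30.4 TPM in the siCTR libraries and 50.7, 56.4 and 56.6 TPM in the siCEP20 libraries. Its groups were well separated although siCTR replicate 1 was low, and the log2 fold change was 1.02 ± 0.152 (SE; adjusted p = 0.00122 by limma). SKA2 overlaps a transcribed antisense gene on the other strand, and the libraries were made with a stranded kit by the study's methods, but the strand setting of the quantification was not given in the sources used here. SKA3 (chr13:21153595-21176552, minus strand) had 7.20, 6.13 and 7.88 TPM against 12.1, 11.7 and 13.0 TPM, again without overlap, and a log2 fold change of 0.72 ± 0.108 (SE; adjusted p = 0.00125). SKA1 rose by 0.44, from 12.4 ± 1.75 to 17.1 ± 2.20 TPM, and with median-of-ratios scaling its adjusted p was 0.0922.

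CENPF (chr1:214603185-214664574, plus strand), a large coiled-coil protein of the outer kinetochore that accumulates in G2, had 9.08, 8.80 and 10.7 TPM in siCTR and 17.3, 18.5 and 15.6 TPM in siCEP20. Each siCEP20 sample was clearly above each siCTR sample, and the log2 fold change was 0.78 ± 0.105 (SE; adjusted p = 0.000771). CENPA, the histone H3 variant that marks centromeres, rose from 38.3 ± 0.807 to 47.9 ± 2.88 TPM with a log2 fold change of 0.31 (adjusted p = 0.00720), and with median-of-ratios scaling the adjusted p was 0.0960. It overlaps SLC35F6 on the same strand, so reads could be shared.

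Of the 4 genes of the NDC80 complex, the main microtubule receptor of the kinetochore, NDC80 alone passed, and differences between the 4 were not tested. NDC80 rose from 4.80 ± 0.343 to 6.49 ± 0.319 TPM (log2 fold change 0.37, adjusted p = 0.0222), though with median-of-ratios scaling the adjusted p was 0.0729. NUF2 and SPC25 did not pass, with log2 fold changes of 0.14 and -0.02. SPC24 (chr19:11131520-11155807, minus strand) had 9.35, 9.36 and 7.83 TPM in siCTR and 7.13, 7.06 and 8.13 TPM in siCEP20, overlapping groups. Its log2 fold change was -0.22 ± 0.109 (SE; adjusted p = 0.135), and with median-of-ratios scaling -0.35 (adjusted p = 0.0396). KNL1, the scaffold that BUB proteins dock on, was the lowest of the 49 genes at 1.82 ± 0.138 TPM in siCTR and had 2.56 ± 0.519 TPM in siCEP20 (adjusted p = 0.134). ZWINT, its partner, showed a log2 fold change of 0.18 (adjusted p = 0.143).

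Of the 6 genes for mitotic kinases and cyclins, 2 rose, 1 fell and 3 did not pass, and none was called. The shares that rose (33.3%) and fell (16.7%) were near those of all tested genes (30.2% and 13.2%). The B cyclins moved in opposite directions. CCNB1 (chr5:69167135-69178245, plus strand) had 149, 144 and 160.1 TPM in the siCTR libraries and 129, 130.3 and 121 TPM in the siCEP20 libraries. No siCEP20 sample reached the lowest siCTR sample, and CCNB1 fell by 0.25 on the log2 scale (SE 0.0619, adjusted p = 0.0122 by limma), passing in each of the 15 refits. CCNB2 (chr15:59105126-59125045, plus strand) had 55.0, 58.3 and 71.1 TPM in siCTR and 86.7, 85.7 and 82.9 TPM in siCEP20. Its groups did not overlap either, and it rose by 0.47 (SE 0.0944, adjusted p = 0.00491). CCNB2 thus stood at 0.369, 0.405 and 0.444 of the CCNB1 level in the siCTR libraries and at 0.673, 0.658 and 0.687 of it in the siCEP20 libraries, a ratio taken within each library and chosen after the values were seen.

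PLK1 (chr16:23677656-23690367, plus strand), the polo-like kinase of centrosome maturation and mitotic entry, had 101, 97.9 and 113 TPM in the siCTR libraries and 114, 141 and 133 TPM in the siCEP20 libraries. The highest siCTR sample and the lowest siCEP20 sample nearly touched. PLK1 rose by 0.30 (SE 0.0917, adjusted p = 0.0280), and with median-of-ratios scaling the log2 fold change was 0.15 (adjusted p = 0.148). It also missed the threshold without siCTR replicate 1, siCTR replicate 2, siCEP20 replicate 2 or siCEP20 replicate 3, with adjusted p between 0.078 and 0.0944.

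AURKA (chr20:56369389-56392337, minus strand), the Aurora kinase of the spindle poles, had 82.7, 70.0 and 78.4 TPM in siCTR and 83.0, 89.2 and 81.9 TPM in siCEP20. The groups overlapped slightly, and the log2 fold change was 0.14 ± 0.0756 (SE; adjusted p = 0.175), or -0.01 with median-of-ratios scaling. CDK1 (chr10:60778331-60794852, plus strand), the kinase partner of the B cyclins, had 31.2, 32.7 and 39.1 TPM against 35.4, 38.0 and 32.6 TPM. These values interleaved, and the log2 fold change was 0.04 ± 0.10 (SE; adjusted p = 0.743), or -0.10 with median-of-ratios scaling. CCNA2, the cyclin of S and G2 phase, had 16.7 ± 1.17 and 19.8 ± 1.27 TPM, groups that did not overlap but did not pass (adjusted p = 0.0626).

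In the chromosomal passenger complex, 1 of 4 genes rose (25%, against 30.2% of all tested genes) and 3 did not pass. INCENP (chr11:62123998-62153169, plus strand), the scaffold that activates Aurora B, had 25.1, 26.2 and 28.5 TPM in siCTR and 37.1, 41.7 and 35.2 TPM in siCEP20. The groups were apart, and INCENP rose by 0.50 (SE 0.0864, adjusted p = 0.00251 by limma). The other subunits had log2 fold changes near 0, with AURKB, the kinase, at -0.01, BIRC5, which encodes survivin, at 0.01 and CDCA8, which encodes borealin, at -0.04. CDCA8 (chr1:37692481-37709719, plus strand) had 18.6, 19.6 and 21.5 TPM against 19.9, 18.9 and 19.2 TPM, with siCEP20 samples inside the siCTR range and an adjusted p of 0.720 (SE 0.0808). INCENP stood at 0.300, 0.314 and 0.287 of the AURKB level in siCTR and at 0.437, 0.461 and 0.395 in siCEP20, another ratio chosen after the values were seen.

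Of 5 genes of the anaphase-promoting complex and separase pathway, 1 rose, a lower share than the 30.2% of all tested genes, and 4 did not pass. CDC27 (chr17:47117703-47189422, minus strand), a core subunit of the ubiquitin ligase, had 41.7, 53.0 and 55.2 TPM in the siCTR libraries and 77.7, 82.7 and 79.2 TPM in the siCEP20 libraries. The siCEP20 samples were tightly placed above the siCTR samples, and the log2 fold change was 0.68 ± 0.103 (SE; adjusted p = 0.00138 by limma). CDC27 has 3 annotated pseudogenes, none above 0.776 TPM in any library, with which reads could be shared. With median-of-ratios scaling its log2 fold change was 0.53 (adjusted p = 0.00166), under the fold of 1.5.

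CDC20 (chr1:43358981-43363203, plus strand), the activator that the checkpoint blocks, had 108, 118 and 128 TPM in siCTR and 119.6, 116 and 108 TPM in siCEP20. These ranges overlapped, and the log2 fold change was -0.04 ± 0.0770 (SE; adjusted p = 0.720), or -0.19 with median-of-ratios scaling (adjusted p = 0.0484). CDC20 and UBE2C have annotated pseudogenes of up to 3.27 and 3.63 TPM. UBE2C, the ubiquitin-conjugating enzyme of the complex and the most abundant of the 49 transcripts in siCTR samples, had 188 ± 23.2 and 197 ± 10.9 TPM (adjusted p = 0.511). PTTG1, which encodes securin, had 135 ± 6.83 and 141 ± 5.18 TPM (adjusted p = 0.503), and ESPL1, the separase that securin inhibits, showed a log2 fold change of 0.10 (adjusted p = 0.341). The log2 fold changes of UBE2C, PTTG1 and ESPL1 were below 0 with median-of-ratios scaling.

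Of the 8 spindle genes, 7 rose (87.5%, against 30.2% of all tested genes), none fell (against 13.2%) and 1 did not pass. Their median was 0.48. With median-of-ratios scaling 4 of the 8 rose (50.0%, against 20.1%). HMMR (chr5:163460203-163491941, plus strand), which binds microtubules and helps TPX2 at spindle poles, had 9.90, 11.3 and 13.6 TPM in the siCTR libraries and 18.5, 18.7 and 19.1 TPM in the siCEP20 libraries. Its siCEP20 samples were close together and all higher, with a log2 fold change of 0.66 ± 0.112 (SE; adjusted p = 0.00232 by limma). ASPM (chr1:197084121-197146694, minus strand), which focuses spindle poles, had 3.70, 3.75 and 4.54 TPM against 6.42, 7.81 and 6.42 TPM. The groups did not overlap, and its log2 fold change was 0.66 ± 0.126 (SE; adjusted p = 0.00397).

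CKAP2L (chr2:112736349-112764664, minus strand), a spindle microtubule protein, had 3.93, 4.54 and 5.46 TPM in siCTR and 8.0, 8.06 and 6.71 TPM in siCEP20. All siCEP20 samples were higher, and the log2 fold change was 0.61 ± 0.134 (SE; adjusted p = 0.00739). DLGAP5 (chr14:55148112-55191608, minus strand), which encodes HURP, a stabiliser of kinetochore fibres, had 11.9, 14.1 and 15.7 TPM against 21.9, 23.6 and 18.9 TPM. These groups were also separate, with a log2 fold change of 0.60 ± 0.121 (SE; adjusted p = 0.00513). These 4 genes passed in each of the 15 refits, but with median-of-ratios scaling none of them was over the fold of 1.5.

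TPX2, the activator of Aurora A on spindle microtubules, rose by 0.24 from 84.2 ± 4.67 to 99.5 ± 2.13 TPM. NUSAP1, a microtubule bundler, rose by 0.36, and NUMA1, which tethers dynein at the poles and cortex, rose by 0.22. With median-of-ratios scaling TPX2 (adjusted p = 0.204), NUSAP1 (adjusted p = 0.132) and NUMA1 (adjusted p = 0.378) did not pass, and NUSAP1 overlaps OIP5-AS1. Of the 15 refits, TPX2 passed in 14, NUSAP1 in 7 and NUMA1 in 4. CKAP2 (chr13:52455429-52476628, plus strand), the relative of CKAP2L, had 14.4, 16.3 and 16.8 TPM in siCTR and 16.5, 17.8 and 17.0 TPM in siCEP20. Its groups overlapped and its log2 fold change was 0.11 ± 0.0853 (SE; adjusted p = 0.349), or -0.04 with median-of-ratios scaling.

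Of the 4 cytokinesis genes, 3 rose and 1 did not pass. ANLN (chr7:36389821-36453791, plus strand), which encodes anillin, the scaffold of the contractile ring, had 21.4, 24.0 and 25.5 TPM in the siCTR libraries and 35.2, 39.0 and 34.1 TPM in the siCEP20 libraries. Its groups did not overlap, and it rose by 0.59 (SE 0.0890, adjusted p = 0.00126 by limma). PRC1, the bundler of antiparallel microtubules in the central spindle, rose by 0.38 from 60.5 ± 2.42 to 79.3 ± 7.92 TPM. ECT2, the exchange factor that activates RhoA at the equator, rose by 0.37 from 52.1 ± 5.11 to 67.5 ± 5.79 TPM, and with median-of-ratios scaling its adjusted p was 0.0505. RACGAP1 (chr12:49976923-50033136, minus strand), the centralspindlin subunit that binds ECT2, had 50.1, 46.5 and 47.2 TPM in siCTR and 41.4, 45.0 and 42.2 TPM in siCEP20. All siCEP20 samples were lower, but the log2 fold change of -0.16 did not pass (SE 0.0660, adjusted p = 0.0860), while with median-of-ratios scaling it was -0.31 (adjusted p = 0.00959).

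MKI67, TOP2A and FOXM1 rose in all the scalings. MKI67 (chr10:128096659-128126423, minus strand), which encodes Ki-67, the coat of mitotic chromosomes and the usual proliferation marker, had 20.5, 24.5 and 25.7 TPM in the siCTR libraries and 46.0, 49.2 and 42.3 TPM in the siCEP20 libraries. The groups were far apart, with a ratio of means of 1.94 and a log2 fold change of 0.93 ± 0.0989 (SE; adjusted p = 0.000261 by limma). TOP2A (chr17:40388525-40417896, minus strand), the topoisomerase that untangles sister chromatids, had 70.4, 79.2 and 85.9 TPM against 116, 122 and 102 TPM. Its groups did not overlap, and the log2 fold change was 0.53 ± 0.0931 (SE; adjusted p = 0.00277). FOXM1 (chr12:2857680-2877174, minus strand), the transcription factor of G2 and M phase genes, rose by 0.58 from 53.9 ± 5.11 to 80.8 ± 5.06 TPM, just under the fold of 1.5, and it overlaps ITFG2 and RHNO1 on the other strand.

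**Figure D4:**
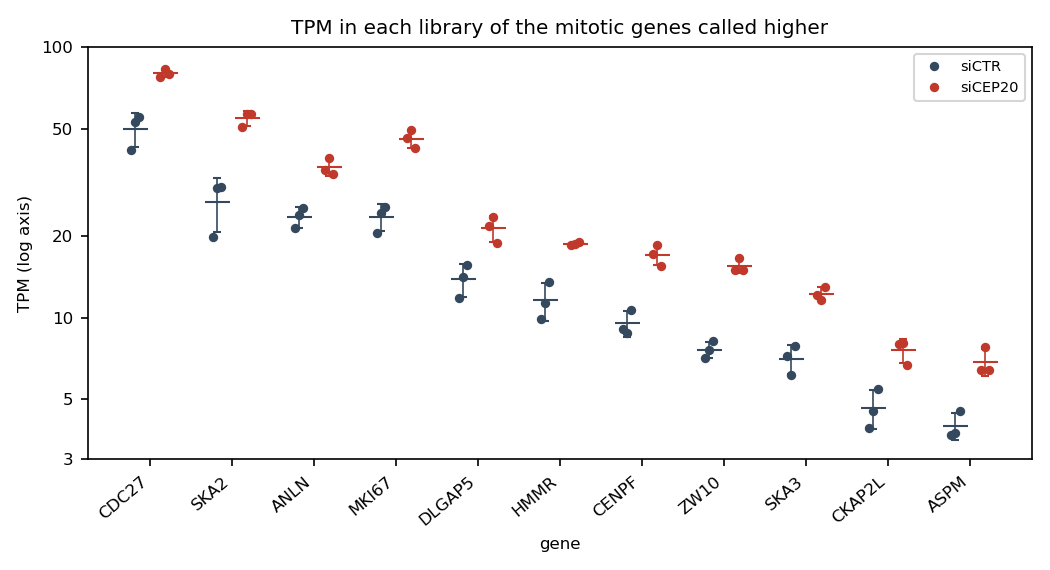
The y axis (log scale) gives TPM in each library for the 11 genes called higher, ordered by level on the x axis, with siCTR in blue, siCEP20 in red, a horizontal line at each mean and bars of ± 1 SD (n = 3). In every gene the red points lie above the blue points, from CDC27 (50.0 to 79.9 TPM) down to ASPM (4.0 to 6.88 TPM).

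The most abundant of the 49 transcripts were not those called. In siCTR samples the most abundant transcripts per length were UBE2C (188 TPM), CCNB1 (151 TPM), PTTG1 (135 TPM), CDC20 (118 TPM), BUB3 (114 TPM) and PLK1 (104 TPM), and of these PLK1 alone rose, CCNB1 fell and none was called. UBE2C, CCNB1 and PTTG1 did not overlap each other across the siCTR libraries, while CDC20, BUB3 and PLK1 did, so the order of these last 3 is within their spread. The least abundant were KNL1 (1.82 TPM), ASPM (4.0 TPM), CKAP2L (4.64 TPM), NDC80 (4.80 TPM), SKA3 (7.07 TPM), TTK (7.36 TPM) and ZW10 (7.63 TPM), of which ASPM, CKAP2L, SKA3 and ZW10 were called higher.

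Genes of the same pathway outside the 49 were counted in lists that share no member with them. Of 97 such mitotic genes, 41 rose (42.3%, against 30.2% of all tested genes) and 10 fell (10.3%, against 13.2%), with a median log2 fold change of 0.24. Called higher were 10 of them (10.3%), near the 11.2% of all tested genes, and 2 were called lower (2.06%, against 4.61%). With median-of-ratios scaling 29 rose (29.9%, against 20.1%) and 18 fell (18.6%, against 21.6%). Of 20 cohesin, condensin and shugoshin genes, which hold sister chromatids together and compact them, 12 rose (60.0%, against 30.2%) and none fell. Their median was 0.36. With median-of-ratios scaling 10 rose (50.0%, against 20.1%) and 1 fell (5.00%, against 21.6%). NCAPH, a condensin subunit, went from 20.5 ± 1.40 to 36.5 ± 0.787 TPM (log2 fold change 0.80, adjusted p = 0.000149), and SMC3, a cohesin subunit, from 17.3 ± 1.40 to 31.2 ± 0.921 TPM (0.82, adjusted p = 0.000194). Of 14 mitotic transcription regulators, 9 rose (64.3%, against 30.2%) and 1 fell (7.14%, against 13.2%). With median-of-ratios scaling 5 rose (35.7%, against 20.1%) and 1 fell (7.14%, against 21.6%). MYBL2, which works with the MuvB core on CHR promoters, went from 43.8 ± 1.92 to 87.6 ± 3.72 TPM (log2 fold change 0.99, adjusted p = 4.71e-05), and TFDP1, an E2F partner, from 48.9 ± 3.17 to 70.2 ± 1.84 TPM (0.51, adjusted p = 0.000685). Of 17 regulators of mitotic entry and exit, 8 rose (47.1%, against 30.2%) and 1 fell (5.88%, against 13.2%). With median-of-ratios scaling 5 rose (29.4%, against 20.1%) and 2 fell (11.8%, against 21.6%). CDC25B, a CDK1 phosphatase, stood at 0.60 (adjusted p = 0.000552) and NEK2, a centrosomal kinase, at 0.48 (adjusted p = 0.00614).

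Of 30 other kinetochore genes, 8 rose (26.7%) and 5 fell (16.7%), with a median of 0.15, shares close to the 30.2% and 13.2% of all tested genes. With median-of-ratios scaling 6 of them rose and 6 fell. CENPX fell from 135 ± 7.89 to 79.2 ± 7.67 TPM (log2 fold change -0.76, adjusted p = 0.000278), while the kinetochore motor CENPE rose from 1.71 ± 0.166 to 3.95 ± 0.0571 TPM (0.87, adjusted p = 0.00119). Of 16 other genes of the anaphase-promoting complex, 4 rose (25%) and 3 fell (18.8%), shares again close to those of all tested genes. Their median was -0.05. With median-of-ratios scaling 3 rose (18.8%, against 20.1%) and 8 fell (50.0%, against 21.6%). ANAPC11, the RING subunit, fell from 252 ± 31.2 to 105 ± 3.51 TPM (log2 fold change -1.25, adjusted p = 5.22e-05), and CDC26 fell from 47.2 ± 0.289 to 34.6 ± 1.74 TPM (-0.44, adjusted p = 0.00119). CDC26 has an annotated pseudogene that reached 25.4 TPM, with which reads could be shared, and CENPX, ANAPC11 and CDC26 each overlap a gene on the other strand. Of 20 S phase genes, 19 were tested, and 6 rose (31.6%) and 2 fell (10.5%), with a median of 0.19. These shares were close to the 30.2% and 13.2% of all tested genes. Called higher was 1 gene and called lower 1 gene (5.26% each, against 11.2% and 4.61%). With median-of-ratios scaling 5 rose and 5 fell (26.3% each, against 20.1% and 21.6%). GINS1, of the replicative helicase, fell from 17.7 ± 1.33 to 7.99 ± 0.836 TPM (log2 fold change -1.06, adjusted p = 0.000185), and CDT1, a licensing factor, rose from 20.2 ± 0.863 to 33.3 ± 0.581 TPM (0.69, adjusted p = 0.000194).

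Fold change and transcript length were positively correlated, both among the 49 genes and among all tested genes. Pearson's r between log2 fold change and log10 transcript length was 0.41 over the 49 genes (Spearman's rho 0.43) and 0.24 over 14737 tested genes (rho 0.25), as a description across genes, which share the same libraries and are not independent replicates. Of the 6 genes under 1500 bases, 2 rose, with a median of 0.07, and of 15 genes from 3000 to 6000 bases, 12 rose, with a median of 0.44. The 20 genes from 1500 to 3000 bases had a median of 0.27 (9 rose), and the 8 genes of 6000 bases or more had a median of 0.39 (5 rose), lower than the class before it. In all tested genes the median was -0.04 under 1500 bases, 0.10 from 1500 to 3000 bases, 0.19 from 3000 to 6000 bases and 0.27 from 6000 bases. The 49 genes had a median length of 2881 bases against 2818 over all tested genes, and a median GC content of 42.1% against 49.2%. After correction of each library for length and GC content, 27 of the 49 rose (55.1%, against 28.5% of all tested genes). Another 3 fell (MAD2L1, CCNB1 and RACGAP1, 6.12%), against 1769 of 14737 tested genes. Called higher were 6 (ZW10, CENPF, SKA2, SKA3, HMMR and MKI67). Their share of 12.2% was near the 10.4% of all tested genes. Without the correction the shares called higher were 22.4% and 11.2%. With the correction MKI67 showed a log2 fold change of 0.79 (adjusted p = 0.000365) and CENPF 0.63 (adjusted p = 0.00134). SKA2, of ordinary length, showed 1.00 (adjusted p = 0.00160).

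**Figure D5:**
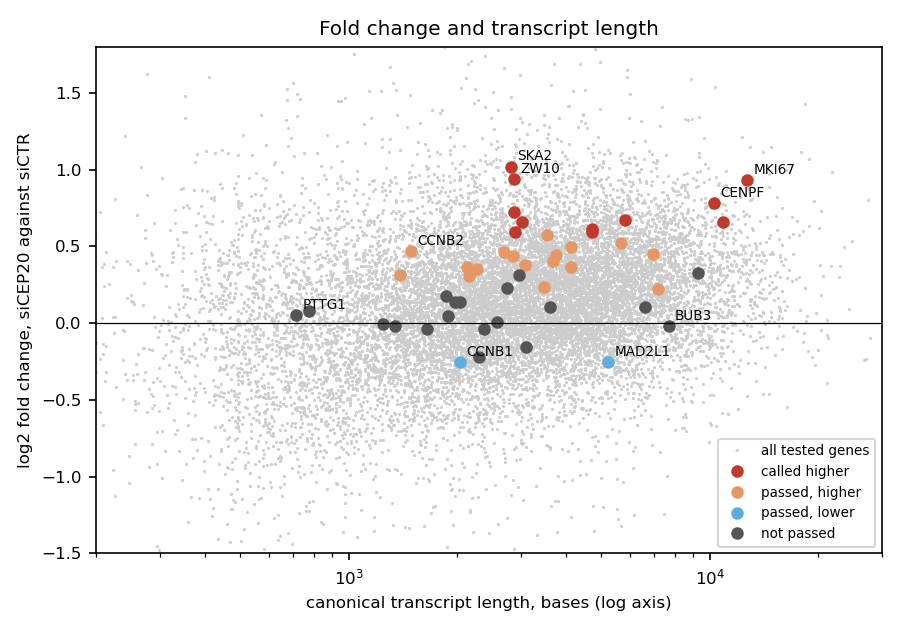
The x axis (log scale) gives canonical transcript length in bases and the y axis the log2 fold change of siCEP20 against siCTR, with grey points for all tested genes and large points for the 49 genes, coloured by call; genes beyond the axes are not drawn. The called genes MKI67 and CENPF, both among the longest, lie at the upper right, while SKA2 and ZW10 lie as high at a length near the median (2881 bases).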

How the data were processed

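RNA-seq of 3 siCEP20 and 3 siCTR samples of A549 cells was used. The authors trimmed reads with fastp 0.20.1, aligned them to hg38 with HISAT2 2.1.0, used StringTie 2.0 to quantify them, and deposited gene TPM in a single table, whose columns were mapped to samples by name. The annotation release was not given in the sources used here. Genes were named and placed with GENCODE release 44.

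The 14778 genes whose mean reached 1 TPM were tested on the log2(TPM + 1) scale, siCEP20 against siCTR, in limma 3.58.1 (R 4.3.3; eBayes with a trend, two-sided). No rescaling or replicate term was used, and Benjamini-Hochberg adjustment covered all of them. The fit was also run on simulated data with independent noise and no shift of all genes. That run cannot speak to the scaling of the libraries. Transcript length and GC content came from the canonical transcript (99.7% of tested genes), and the correction subtracted loess curves (span 0.5) within each library. Promoters came from RefSeq (GRCh38.p14), without matched entries for AURKA, BIRC5, BUB3, FOXM1, KNL1, KNTC1, RACGAP1, TPX2, TTK and UBE2C.

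The members and lists were chosen with earlier results of these data known. Every member was named. Values in each library were given for called members, for the highest and lowest fold change of each function and for PLK1, AURKA, CDK1 and CCNB1, and the other pathway lists were represented by the 2 genes with the smallest adjusted p. The labels name F-12K medium and a column kit for RNA, and the methods name DMEM and TRIzol. Alternatives were median-of-ratios and quantile scaling, length and GC correction, other filters and pseudocount, no trend, protein-coding genes only, a replicate block, a fold of 2 and leaving out each library. The value of a further cell type marker is not reported here.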

Additional observations from a re-analysis of the deposited data

How the results depend on the processing

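With median-of-ratios scaling 18 of the 49 genes rose (36.7%), 6 fell (12.2%) and 5 were called higher (10.2%). The ratio of summed TPM was 1.06, and 18 of the 97 other mitotic genes fell (18.6%). Over all genes 2963 rose (20.1%) and 3185 fell (21.6%), with 894 called higher (6.05%) and 1103 called lower (7.46%), in place of 4457, 1944, 1659 and 682. With quantile normalization 4 of the 49 fell (8.16%) and 5 were called higher (10.2%), and 27 of the 97 rose (27.8%) and 18 fell (18.6%). Over all genes 3162 rose (21.4%), 2938 fell (19.9%) and 923 were called higher (6.25%). The median of the 49 genes relative to all genes was 0.19 as reported, 0.21 with either scaling and 0.20 with the length and GC correction. That correction left 6 called higher (12.2%, against 10.4% of all tested genes). A fold of 2 left 1 of the 49 (SKA2), against 261 of the 14778 tested genes called higher and 147 called lower. At that fold the members did not clearly stand out from all tested genes. Without a filter 26 of the 97 rose (26.8%, against 12.4% of all tested genes) and 6 fell (6.19%, against 5.45%). Leaving out each library gave 6 to 13 called higher (12.2% to 26.5%, against 9.28% to 12.8% of all tested genes). In each case 1 fell (2.04%, against 10.1% to 11.8% of all tested genes). Of the 97, 6 to 8 fell (6.19% to 8.25%, against the same 10.1% to 11.8%), with the 6 without siCTR replicate 3. Of the 28 genes that rose, 17 passed in all 15 refits, as did the 11 called genes, and ZW10, CENPF, SKA2 and MKI67 stayed called in all 15. BUB1B, MAD1L1, KNTC1, NDC80, CENPA, SKA1, PLK1, TPX2, NUSAP1, NUMA1 and ECT2 rose but were lost in some refit, and NUMA1 passed in only 4.

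Signs turned only in genes that did not pass in the reported fit. With median-of-ratios scaling these were NUF2 (-0.00056), CDK1 (-0.10), AURKA (-0.012), BIRC5 (-0.14), UBE2C (-0.072), PTTG1 (-0.097), ESPL1 (-0.036) and CKAP2 (-0.036). With quantile normalization they were NUF2 (-0.024), CDK1 (-0.089), BIRC5 (-0.071), ESPL1 (-0.066) and CKAP2 (-0.037). With the length and GC correction they were SPC25 (0.052), AURKB (0.13), BIRC5 (-0.0073), CDC20 (0.045) and ESPL1 (-0.0067), and with protein-coding genes only AURKB (0.0070). With a library left out, log2 fold changes ran from -0.068 to 0.016 for BUB3, -0.11 to 0.031 for SPC25, -0.019 to 0.14 for CDK1, -0.049 to 0.077 for AURKB, -0.064 to 0.060 for BIRC5, -0.086 to 0.016 for CDCA8 and -0.10 to 0.026 for CDC20. The cause of these changes was not tested.

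Deviations of samples with the same replicate number were weakly correlated (0.157, -0.061 and -0.062). Those of samples with different numbers ran from -0.121 to 0.170. These correlations cannot tell whether samples with equal numbers were prepared together. With a replicate block 27 of the 49 genes rose (55.1%, against 28.9% of all tested genes) and 1 fell (CCNB1). Called higher with it were 11 (22.4%, against 11.2%).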
